A study of Mus musculus with 12 samples.

Results

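The mRNA levels of 10 genes that mark neuroblasts and young neurons were followed in cultured adult mouse neural stem cells. The genes were Dcx, Tubb3, Crmp1, Stmn2, St8sia2, Cd24a, Elavl3, Elavl4, Sox4 and Sox11, which are 10 of the 17365 genes in the count table. They were chosen by symbol for their known place in neuroblasts, and were selected on sight of measured values of these libraries, above all the difference between BMP/FGF and BMP, in which St8sia2 had one of the most negative fold changes. Values of that comparison are therefore given as a description, with no test. Of the 17365 genes, 13312 passed the filter on low counts, among them 9 of the 10 markers. Stmn2 did not pass. The other 9 held at least 12 counts in every library, the lowest being Dcx in an EGF/FGF library.

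Neural stem cells (NSCs) had been isolated from the subventricular zone of mice aged 6 to 8 weeks and grown as adherent lines on laminin, below passage 10. The ANS4 line came from the MF1 strain and the BL6 line from C57BL/6, so that strain and line cannot be told apart, and each strain is represented by 1 line. Each line was kept in EGF/FGF, in which the cells proliferate, or was moved for 3 days to BMP-4 alone (BMP) or to BMP-4 with FGF-2 (BMP/FGF), every factor at 10 ng/ml. The study used BMP and BMP/FGF as models of dormant and primed quiescence and asked how the 2 states differ. Each of the 3 conditions was sequenced in 2 replicates of each line, giving 4 libraries per condition and 12 in all, with 18069052 to 19451818 counts per library.

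Neuroblasts are the migrating progeny of subventricular zone stem cells. In the intact brain they travel in chains to the olfactory bulb and become interneurons there. On the way they build a dynamic microtubule skeleton, coat the adhesion molecule NCAM with polysialic acid, and carry neuronal RNA-binding proteins and SoxC transcription factors. The microtubule, polysialic acid and RNA-binding genes are used as markers because resting stem cells hold little of them, whereas Sox4, Sox11 and Cd24a are also found in progenitors.

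The genes lie on different chromosomes. In the GRCm38 annotation, Dcx spans chrX:143855842-143933311 on the minus strand, Tubb3 chr8:123411424-123422015 on the plus strand, St8sia2 chr7:73939119-74013690 on the minus strand and Elavl3 chr9:22015005-22052023 on the minus strand. The sequence just before the start of each is shown because Dcx, Tubb3 and St8sia2 had the largest rises in BMP, and because the BMP/FGF level of Elavl3 lay above its BMP level in ANS4 and below it in BL6. Each stretch holds 120 bases of the RefSeq promoter window (build GRCm38.p6) that lie before every annotated start of the gene, written 5′ to 3′. Capitals mark a match to a searched motif.
Dcx, chrX:143933312-143933431, minus strand: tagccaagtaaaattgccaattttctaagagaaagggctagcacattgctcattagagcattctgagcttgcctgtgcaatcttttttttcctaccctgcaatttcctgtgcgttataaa
Tubb3, chr8:123411304-123411423, plus strand: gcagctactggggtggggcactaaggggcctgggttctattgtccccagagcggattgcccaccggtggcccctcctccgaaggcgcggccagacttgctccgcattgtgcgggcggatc
St8sia2, chr7:74013691-74013810, minus strand: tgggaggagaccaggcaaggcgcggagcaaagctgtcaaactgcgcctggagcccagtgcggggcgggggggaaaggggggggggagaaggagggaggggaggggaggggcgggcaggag
Elavl3, chr9:22052024-22052143, minus strand: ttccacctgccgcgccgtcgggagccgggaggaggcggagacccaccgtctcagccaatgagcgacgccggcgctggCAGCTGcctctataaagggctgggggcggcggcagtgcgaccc
The motifs were the E-boxes CAGCTG and CAGATG, to which neurogenic bHLH factors bind, the Sox-type motifs ACAAAG and AACAAT, and the GC-rich GGCGCC known from BMP-responsive elements. Both strands were searched over the 250 bases before the RefSeq start, and 8 of the 10 markers had a window. The GENCODE annotation places an earlier start for some, so that 129 bases of the Tubb3 window, 118 of the Crmp1 window and 92 of the Dcx window lie inside its gene model. Stmn2 and Cd24a are named only. CAGCTG, which reads the same on both strands, was present in 3 of the 8, Elavl3, Sox4 and Sox11, and in 12.7% of all 27025 promoters. ACAAAG was found in Crmp1 alone, inside the GENCODE gene model, against 16.5% of all promoters, and AACAAT in Elavl4 alone, against 9.62%. CAGATG, held by 14.5% of all promoters, and GGCGCC, held by 9.57%, were in 0 of the 8. The share of G and C ran from 41.6% for Dcx through 50.8% for Sox4 to 68.0% for Tubb3, 68.8% for St8sia2 and 75.6% for Crmp1, beside a median of 52% over all promoters. A match of letters describes the window and says nothing of a bound factor.

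Levels are given as CPM, the counts of a gene relative to all counts of its library, scaled for library composition. Each gene is followed through the libraries of ANS4 and of BL6 apart, as replicate 1 and replicate 2. Fold changes between conditions come from a fit of both lines together, with line as a term. The term takes out a difference between the lines that is the same in every condition. Their standard errors (SE) still hold any difference between the lines in the change between conditions. A gene was called changed at a false discovery rate (FDR) under 0.05, by edgeR's quasi-likelihood test with Benjamini-Hochberg adjustment over all 13312 genes. The comparisons share libraries with each other and with the contrast in view when the genes were listed, so the FDR values are not independent evidence. In RNA from a whole culture, a smaller share of cells of a type and less RNA in each such cell cannot be told apart.

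BMP lacks EGF and FGF-2 and adds BMP-4, and BMP/FGF swaps EGF for BMP-4. In a comparison with EGF/FGF, these factors and the exit from proliferation therefore cannot be told apart. Most of the markers were higher in BMP than in EGF/FGF. Of the 9 tested, 7 rose, 1 fell and 1 did not pass, where 40.8% of all tested genes were called higher and 38.8% lower. The median log2 fold change over the 9 was 1.70, and over all tested genes it was 0.02. In BMP/FGF against EGF/FGF, 5 rose, 2 fell and 2 did not pass, where 40.9% of all genes were called higher and 38.0% lower, and the median was 0.47 over the 9 markers and 0.02 over all genes. Between BMP/FGF and BMP all 9 were called lower, where 20.1% of all genes were called higher and 21.3% lower. This last count is the pattern that was known when the genes were listed, and nothing is read from it. It was 7 in ANS4 alone, where Elavl3 stood 0.18 (log2) higher in BMP/FGF and Sox4 was not called, and 8 without any 1 of the BMP or BMP/FGF libraries of BL6, with DESeq2 and with limma-trend, each time because Elavl3 was not called.

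**Figure D1:**
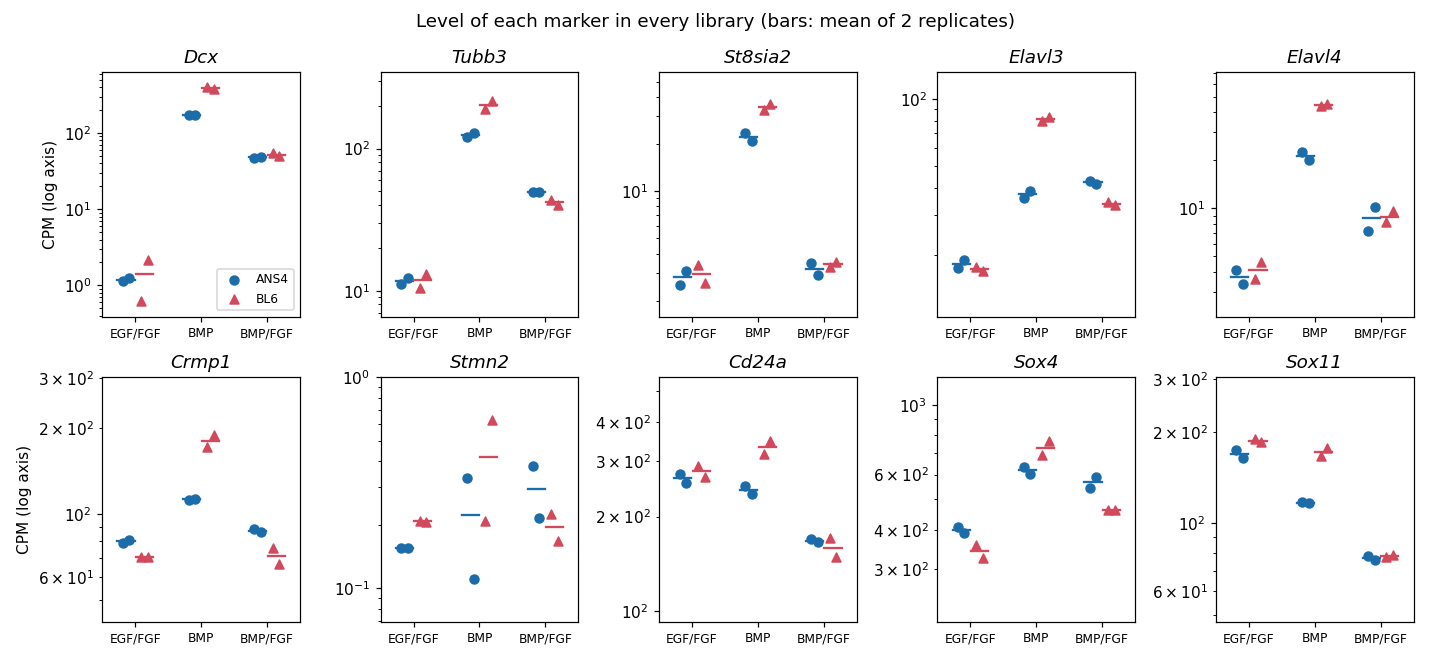
Level of each of the 10 markers in every library, in CPM on a log axis whose range differs between panels. Circles are ANS4 and triangles BL6, and short bars are the mean of 2 replicates. In BMP, both BL6 libraries lie above both ANS4 libraries for every marker except Stmn2, while in EGF/FGF Dcx lies between 0.625 and 2.17 CPM. The share of all genes with such a separation was not counted.

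Dcx encodes doublecortin, the microtubule-binding protein of migrating neuroblasts. In EGF/FGF it stood at 1.14 and 1.24 CPM in ANS4 and at 2.17 and 0.625 CPM in BL6, from 12 to 42 counts. In BMP it reached 174 and 170 CPM in ANS4 and 396 and 379 CPM in BL6. With BMP/FGF it was 47.6 and 47.9 CPM in ANS4 and 54.8 and 49.3 CPM in BL6. No library of one condition reached into the range of another. The rise in BMP over EGF/FGF was 7.69 ± 0.25 (log2, SE), or 206-fold, and the 10th largest of 13312 genes (FDR = 9.97e-15). The level in BMP/FGF was still 39.6-fold above EGF/FGF (log2 5.31 ± 0.26, FDR = 2.15e-12). Its BMP/FGF level was 27.8% of the BMP level in ANS4 and 13.4% in BL6.

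Tubb3 encodes the neuronal beta-III tubulin. It measured 11.2 and 12.3 CPM in ANS4 and 10.5 and 13.1 CPM in BL6 in EGF/FGF. In BMP it measured 121 and 130 CPM in ANS4 and 190 and 217 CPM in BL6. In BMP/FGF it was 49.1 and 49.3 CPM in ANS4 and 43.7 and 40.0 CPM in BL6. As for Dcx, the 3 conditions did not overlap. The rise was 13.8-fold in BMP (log2 3.79 ± 0.16, FDR = 2.17e-13) and 3.89-fold in BMP/FGF (log2 1.96 ± 0.16, FDR = 1.90e-09). A longer gene model, Gm20388, runs over Tubb3 on the same strand and is not a row of the count table.

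Crmp1 encodes a collapsin response mediator protein, part of semaphorin signalling in growth cones. In EGF/FGF it stood at 79.0 and 81.2 CPM in ANS4 and 70.7 and 70.4 CPM in BL6. In BMP it was 112 and 113 CPM in ANS4 and 172 and 189 CPM in BL6, above every EGF/FGF library. With BMP/FGF it was 88.6 and 86.1 CPM in ANS4 and 75.8 and 66.9 CPM in BL6, which overlapped EGF/FGF. The BMP rise was 1.93-fold (log2 0.95 ± 0.14, FDR = 7.64e-06). BMP/FGF differed from EGF/FGF by log2 0.08 ± 0.14, which did not pass the test (FDR = 0.630). Crmp1 overlaps Evc on the opposite strand, and whether the library kept strand is not given in the sources used here, so some of its reads cannot be told from Evc.

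Stmn2, which encodes a microtubule-destabilizing stathmin of growing axons, was close to the floor. It had 3 to 4 counts in the EGF/FGF libraries, 2 to 12 counts under BMP and from 3 up to 7 under BMP/FGF, and these ranges overlapped. The highest value was 0.626 CPM, in 1 BL6 BMP library. No fold is given, and without the filter neither BMP (FDR = 0.206) nor BMP/FGF (FDR = 0.510) differed from EGF/FGF at the threshold in the same edgeR test.

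St8sia2 encodes a polysialyltransferase that places polysialic acid on NCAM. Its level in EGF/FGF was 2.54 and 3.10 CPM in ANS4 and 3.38 and 2.58 CPM in BL6. In BMP it was 23.6 and 20.9 CPM in ANS4 and 32.9 and 36.0 CPM in BL6. The level in BMP/FGF was 3.50 and 2.91 CPM in ANS4 and 3.30 and 3.52 CPM in BL6. The BMP libraries thus stood apart, whereas the BMP/FGF and EGF/FGF libraries overlapped in both lines. The BMP rise was 9.63-fold (log2 3.27 ± 0.13, FDR = 2.15e-13). BMP/FGF and EGF/FGF differed by log2 0.19 ± 0.17 (FDR = 0.299), a difference smaller than could be called here. Of the 9 markers this was the lowest BMP/FGF level relative to BMP, 14.4% in ANS4 and 9.89% in BL6.

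Cd24a encodes a small glycolipid-anchored surface glycoprotein of neuroblasts, also found on ependymal and progenitor cells. In EGF/FGF it stood at 273 and 256 CPM in ANS4 and 290 and 267 CPM in BL6. In BMP it was 250 and 236 CPM in ANS4 and 317 and 346 CPM in BL6, below EGF/FGF in the first line and above it in the second. In BMP/FGF it was 169 and 166 CPM in ANS4 and 171 and 148 CPM in BL6, lower than in any other library. BMP did not differ from EGF/FGF at the threshold (log2 0.07 ± 0.09, FDR = 0.458). In BL6 alone it was called higher (0.23, FDR = 0.0195), and in ANS4 alone it stood at -0.12 (FDR = 0.0595). BMP/FGF fell by 0.73 ± 0.09 (log2) below EGF/FGF (FDR = 6.86e-07).

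Elavl3 and Elavl4 encode HuC and HuD, RNA-binding proteins that stabilize neuronal transcripts. Elavl4 measured 4.09 and 3.36 CPM in ANS4 and 3.59 and 4.60 CPM in BL6 in EGF/FGF. It reached 22.5 and 20.1 CPM in ANS4 and 43.7 and 44.7 CPM in BL6 in BMP. With BMP/FGF it measured 7.17 and 10.2 CPM in ANS4 and 8.16 and 9.61 CPM in BL6. The 3 conditions did not overlap, with a rise of 8.08-fold in BMP (log2 3.01 ± 0.19, FDR = 7.40e-11) and 2.27-fold in BMP/FGF (log2 1.18 ± 0.21, FDR = 4.96e-05).

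Elavl3 started higher and moved less. Its EGF/FGF level was 17.5 and 19.0 CPM in ANS4 and 17.6 and 16.9 CPM in BL6. In BMP it was 36.1 and 38.6 CPM in ANS4 and 79.9 and 82.7 CPM in BL6. The level in BMP/FGF was 42.9 and 41.6 CPM in ANS4 and 34.3 and 33.3 CPM in BL6. Within ANS4 both BMP/FGF libraries lay above both BMP libraries, and within BL6 both lay below. The difference within ANS4 (log2 0.18 ± 0.08) was not called. Both conditions exceeded EGF/FGF, BMP by 3.25-fold (log2 1.70 ± 0.21, FDR = 5.75e-07) and BMP/FGF by 2.16-fold (log2 1.11 ± 0.21, FDR = 8.90e-05). The gene model Gm49318 overlaps it on the same strand and is not a row of the count table.

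Sox4 and Sox11 encode SoxC transcription factors that act early in neuronal differentiation and share target genes, and they went different ways. Sox4 in EGF/FGF was at 408 and 391 CPM in ANS4 and 358 and 326 CPM in BL6. In BMP it was at 636 and 603 CPM in ANS4 and 690 and 766 CPM in BL6. In BMP/FGF it was at 543 and 591 CPM in ANS4 and 461 and 462 CPM in BL6. It rose 1.83-fold in BMP (log2 0.87 ± 0.09, FDR = 8.99e-08) and 1.39-fold in BMP/FGF (log2 0.47 ± 0.09, FDR = 0.000132), with no overlap between the 3 conditions. The noncoding gene Gm26735 overlaps Sox4 on the opposite strand.

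Sox11 was at 174 and 164 CPM in ANS4 and 190 and 186 CPM in BL6 in EGF/FGF. It was at 118 and 117 CPM in ANS4 and 167 and 177 CPM in BL6 in BMP. In BMP/FGF all 4 libraries lay close together, at 78.3 and 75.9 CPM in ANS4 and 77.7 and 78.9 CPM in BL6, below every other library. It fell by 0.32 ± 0.08 (log2) in BMP (FDR = 0.00186), which in BL6 alone was -0.15 and no longer passed (FDR = 0.0731), and by 1.19 ± 0.09 in BMP/FGF (FDR = 4.45e-10). The difference between the SoxC genes themselves was not tested.

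**Figure D2:**
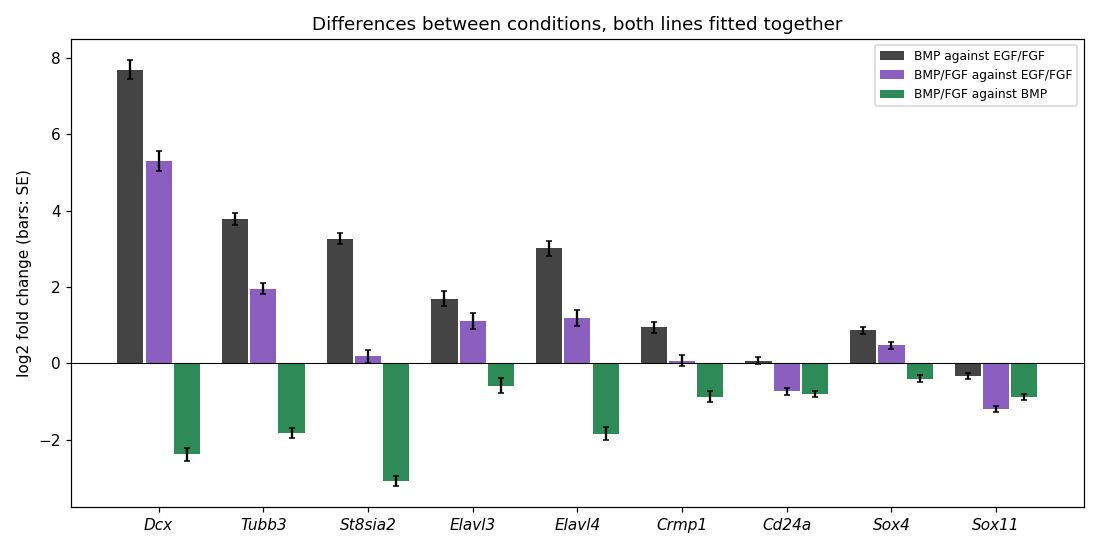
Log2 fold change of the 9 tested markers in the 3 comparisons of conditions, with both lines fitted together and error bars of 1 SE. Dcx has the tallest bars against EGF/FGF (7.69 and 5.31), St8sia2 returns to near 0 in BMP/FGF (0.19), and the BMP/FGF over BMP bars are a description of the contrast in which the genes were known.

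Between BMP/FGF and BMP the differences covered a wide range. St8sia2 differed by log2 -3.08 ± 0.13, the 6th lowest of 13312 genes, and Dcx by -2.38 ± 0.16, the 21st lowest. Elavl4 followed at -1.84 ± 0.17 and Tubb3 at -1.82 ± 0.14. Sox11 and Crmp1 both stood at -0.87, with an SE of 0.09 and 0.14, and Cd24a at -0.80 ± 0.09. Elavl3 at -0.59 ± 0.20 and Sox4 at -0.40 ± 0.09 had the smallest differences. The median over the 9 was -0.87, beside 0.00 over all tested genes.

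Compared per kilobase of the longest coding transcript, the order of the genes changed between conditions. In EGF/FGF, Cd24a (150 CPM per kb) and Sox4 (77.3 CPM per kb) were highest, and Dcx (0.143 CPM per kb) overlapped Stmn2 (0.0875 CPM per kb) at the bottom, which was the only overlap between neighbours there. In BMP, Cd24a (158 CPM per kb) and Sox4 (140 CPM per kb) overlapped at the top and Tubb3 (88.1 CPM per kb) came next, apart from both. Dcx had moved up to the fifth place at 30.8 CPM per kb, and its range of 18.7 to 43.7 overlapped those of its neighbours Crmp1 (48.0 CPM per kb) and Sox11 (17.4 CPM per kb). Below them Elavl3 (11.8 CPM per kb), Elavl4 (7.89 CPM per kb) and St8sia2 (5.28 CPM per kb) each overlapped the next. In BMP/FGF, Sox4 (107 CPM per kb) was above Cd24a (90.1 CPM per kb) without overlap, Crmp1 (26.0 CPM per kb) and Tubb3 (24.4 CPM per kb) overlapped, and Dcx stood at 5.50 CPM per kb, between Elavl3 (7.59 CPM per kb) and Elavl4 (2.12 CPM per kb).

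The lines differed in BMP and not, at the threshold, in the other conditions. In BMP all 9 tested markers were higher in BL6 than in ANS4, where 12.3% of all genes were called higher in BL6 and 10.8% lower. With no correction for composition these were 2099 higher and 1043 lower genes in place of 1632 and 1434. In EGF/FGF 0 of the 9 passed in either direction, where 2.91% were called higher and 3.84% lower, although Crmp1, Sox4 and Sox11 had an unadjusted p under 0.05 (0.0198, 0.00428 and 0.0241). In BMP/FGF 0 of the 9 passed, where 0.563% were called higher and 0.173% lower (75 and 23 genes, or 56 and 43 with no correction for composition). Tubb3, Elavl3, Crmp1 and Sox4 had an unadjusted p under 0.05 there, each lower in BL6. DESeq2 called 3 of the 9 lower there, where it called 42 of all 13312 genes lower. In EGF/FGF it called 1 of the 9 lower, where it called 508 of all genes lower. The edgeR counts for both conditions also moved when either BL6 BMP replicate, whose pair differed most, was left out.

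The BL6 over ANS4 difference in BMP was log2 1.17 ± 0.10 for Dcx, or 2.26-fold (FDR = 4.89e-07). Elavl3 differed by 1.12 ± 0.07 (FDR = 5.45e-08) and Elavl4 by 1.05 ± 0.12 (FDR = 9.78e-06). These 3 neuronal genes were more than 2-fold higher in BL6, with 2.18-fold for Elavl3 and 2.07-fold for Elavl4. Tubb3 (0.70 ± 0.08, FDR = 9.64e-06), Crmp1 (0.68 ± 0.07, FDR = 2.73e-06) and St8sia2 (0.63 ± 0.11, FDR = 0.000443) were next. Sox11 differed by 0.55 ± 0.06 (FDR = 7.29e-06), Cd24a by 0.45 ± 0.07 (FDR = 0.000353) and Sox4 by 0.23 ± 0.07 (FDR = 0.0188). For each of the 9, both BL6 libraries lay above both ANS4 libraries in BMP. The share of all genes that separate in this way was not counted, so nothing is read from this. The Sox4 difference no longer passed with only the 4 BMP libraries (FDR = 0.119), without ANS4 BMP replicate 2 (0.19, FDR = 0.137) or without BL6 BMP replicate 2 (0.16, FDR = 0.111), and that of Elavl4 was 0.63 by limma-trend on the deposited log2 values (FDR = 0.0545).

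**Figure D3:**
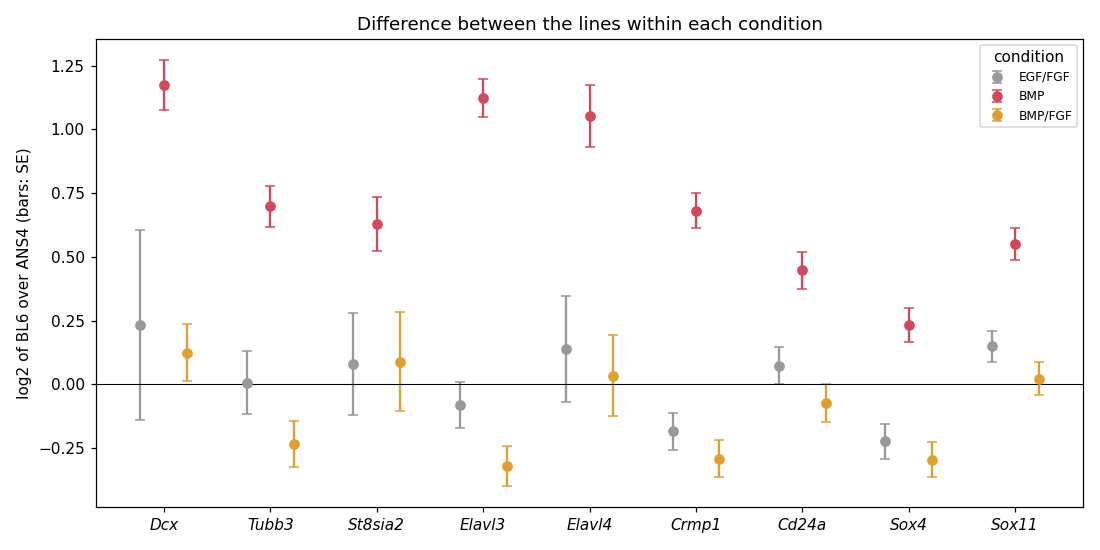
Log2 of BL6 over ANS4 for the 9 tested markers within each condition, with error bars of 1 SE. The BMP points lie above 0 for all 9, from 0.23 for Sox4 to 1.17 for Dcx, while EGF/FGF and BMP/FGF points lie between -0.32 and 0.23.

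The difference between BMP and EGF/FGF was in turn compared between the lines, as an interaction. A higher BMP over EGF/FGF fold change in BL6 than in ANS4 was called for 7 of the 9 markers. Over all genes 5.39% were called higher in this difference and 3.63% lower. With no correction for composition these were 892 and 365 genes in place of 718 and 483. The difference was log2 1.20 ± 0.12 for Elavl3 (FDR = 1.23e-05) and 0.87 ± 0.10 for Crmp1 (FDR = 5.52e-05). Elavl4 (0.91 ± 0.24, FDR = 0.0252), Tubb3 (0.69 ± 0.15, FDR = 0.00702), Sox4 (0.46 ± 0.10, FDR = 0.00670), Sox11 (0.40 ± 0.09, FDR = 0.00771) and Cd24a (0.37 ± 0.10, FDR = 0.0328) also passed. For Sox11 the difference was a smaller fall, and for Cd24a a fold change below 0 in ANS4 (-0.12) and above 0 in BL6 (0.25). Dcx (0.94 ± 0.39, FDR = 0.147) and St8sia2 (0.55 ± 0.23, FDR = 0.146) also stood higher in BL6 but did not pass. The Dcx difference was 0.31 without the first EGF/FGF replicate of BL6 (FDR = 0.616) and 2.10 without the second (FDR = 0.00371), and it also passed with DESeq2 (FDR = 0.0354) and with limma-trend (FDR = 0.0170). The Cd24a call was lost in 11 of 19 alternatives, at the most FDR = 0.142 without BL6 EGF/FGF replicate 2. That of Elavl4 was lost in 4, including without ANS4 BMP replicate 2 and without replicate 1 of either line in EGF/FGF (FDR up to 0.149), and that of Tubb3 in 2, without ANS4 EGF/FGF replicate 2 or BL6 EGF/FGF replicate 1 (FDR up to 0.0566).

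The difference between BMP/FGF and BMP is given by line as a description. It was lower in BL6 for all 9 and past the threshold for 8, where 6.67% of all genes were called higher and 6.86% lower, and nothing is read from this count. With no correction for composition the counts over all genes were 544 and 1401 in place of 888 and 913. It ran from log2 -0.52 ± 0.11 for Cd24a to -1.44 ± 0.11 for Elavl3, and St8sia2 at -0.54 ± 0.22 was not called. In ANS4 the BMP/FGF level was 91.6% of the BMP level for Sox4, 77.7% for Crmp1 and 113% for Elavl3. In BL6 the same genes stood at 63.4%, 39.5% and 41.6%. This comparison and the one before it share the BMP libraries.

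Other neuronal genes were followed in 5 lists, drawn up with earlier results of these data known, so their counts and FDR values describe these comparisons and are not independent evidence. Their counts stand beside 20.1% of all genes called higher and 21.3% lower in BMP/FGF against BMP, and 40.8% higher and 38.8% lower in BMP against EGF/FGF. The genes named are those with the largest changes in BMP/FGF against BMP. An SD given for them is over the 4 libraries of both lines, and so also holds the difference between the lines. Of 29 neurogenic transcription factors 20 were tested, and 17 were lower and 0 higher in BMP/FGF than in BMP. In BMP against EGF/FGF 17 of them rose and 2 fell. Of the 20, 3 (Dlx5, St18 and Scrt2) had at most 3 counts in every EGF/FGF library. They passed the filter through the other conditions, so a fall could not have been called for them. Dlx5, a homeobox factor of olfactory bulb interneurons, had at most 1 count in an EGF/FGF library. It had 14.8 ± 7.54 CPM (SD, n = 4) in BMP, as 8.39 and 8.14 CPM in ANS4 and 21.9 and 20.6 CPM in BL6. In BMP/FGF it had 1.40 ± 0.376 CPM (SD, n = 4), a difference from BMP of log2 -3.31 ± 0.22 (edgeR FDR = 4.63e-09). Sp8, a zinc-finger factor of the same interneurons, fell by 2.98 ± 0.22 (FDR = 1.35e-08), and its BMP/FGF level of 0.677 CPM lay below its EGF/FGF level of 1.75 CPM. St18 fell by 2.23 ± 0.20 (FDR = 1.42e-07) and Scrt2 by 2.08 ± 0.27 (FDR = 1.04e-05), and both had at most 3 counts in any EGF/FGF library. Their BMP levels were 6.65 and 4.80 CPM.

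Of 10 neuronal RNA-binding genes 8 were tested, and 7 were lower and 0 higher in BMP/FGF than in BMP. Srrm4, a neuronal splicing regulator, was at 6.18 ± 1.94 CPM in BMP and 0.945 ± 0.327 CPM in BMP/FGF (SD, n = 4), and fell by 2.67 ± 0.26 on the log2 scale (edgeR FDR = 4.82e-07). Celf6 fell by 1.49 ± 0.27 (FDR = 0.000297) and Celf4 by 1.01 ± 0.17 (FDR = 0.000117). Elavl2, a Hu family member like Elavl3 and Elavl4, fell by 1.19 ± 0.13 (FDR = 1.22e-06), from 18.3 to 7.92 CPM.

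Of 26 cytoskeletal and growth cone genes, 14 were lower, 2 higher and 10 not called in BMP/FGF against BMP, with a median of -0.27. Stmn4, a stathmin like Stmn2, fell by 1.81 ± 0.30 (FDR = 0.000118). Map1b, a microtubule-associated protein, fell by 1.22 ± 0.11 (FDR = 1.73e-07), Cdk5r1, the activator of the neuronal kinase CDK5, by 1.20 ± 0.13 (FDR = 1.18e-06) and the intermediate filament gene Ina by 1.03 ± 0.19 (FDR = 0.000432). In BMP, 15 of the 26 were higher and 7 lower than in EGF/FGF, where 40.8% and 38.8% of all genes were. Map1b was among the lower ones (log2 -0.47 ± 0.11, FDR = 0.000566), whereas Stmn4, Cdk5r1 and Ina were among the higher ones.

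In the list of polysialic acid, adhesion and migration genes 12 of 14 were tested, and 6 were lower and 4 higher in BMP/FGF than in BMP. The synaptic adhesion gene Nrxn3 fell by 1.96 ± 0.17 (FDR = 1.39e-07), from 25.1 to 6.09 CPM, and the chemokine receptor gene Cxcr4 by 1.04 ± 0.09 (FDR = 9.85e-08). In contrast, Chl1 rose by 1.48 ± 0.21 (FDR = 2.24e-05), from 1.49 to 4.18 CPM, and Ncam2 by 0.86 ± 0.12 (FDR = 3.13e-05). Ncam1, which encodes the main carrier of polysialic acid, was chosen after its values were seen because St8sia2 acts on it. It was at 537 CPM in BMP and 628 CPM in BMP/FGF, a rise of 0.23 (FDR = 0.00238), while St8sia2 was lower.

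Of 22 mature neuron genes 18 were tested, and 9 were lower and 2 higher in BMP/FGF than in BMP. The interneuron gene Calb2, which encodes calretinin, fell by 2.85 ± 0.22 (FDR = 2.62e-08), from 6.48 to 0.868 CPM. The synaptotagmin gene Syt1 fell by 2.26 ± 0.26 (FDR = 2.35e-06), and the GABA-synthesizing enzyme genes Gad1 and Gad2 fell by 1.43 ± 0.23 (FDR = 8.62e-05) and 1.13 ± 0.15 (FDR = 1.30e-05). Rises in BMP over EGF/FGF were called for 12 of the 18 and falls for 3. Gad1 was among the rises and Gad2 among the falls (log2 -0.37 ± 0.14, FDR = 0.0188). For 2 of the 18, with at most 3 counts in every EGF/FGF library, a fall could not have been called. The summed level of the list nonetheless stood highest in EGF/FGF, at 603 to 632 CPM, against 461 to 568 CPM in BMP and 459 to 503 CPM in BMP/FGF. This order rested on the kinase subunit gene Camk2b, which was at 427 CPM in EGF/FGF, 62.2 CPM in BMP and 101 CPM in BMP/FGF and was singled out after its values were seen. Without it the sum was 184 to 201 CPM in EGF/FGF, 394 to 512 CPM in BMP and 360 to 402 CPM in BMP/FGF.

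**Figure D4:**
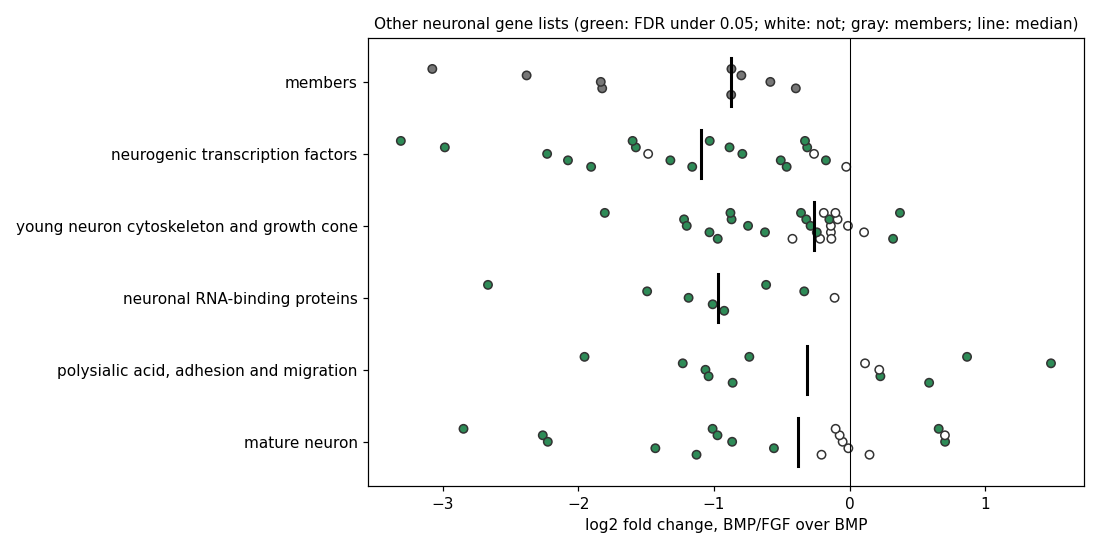
Log2 fold change of BMP/FGF over BMP for the 9 tested markers (gray) and the tested genes of 5 other neuronal lists, 1 point per gene, green where the FDR was under 0.05 and white where not. Thick lines are medians, which lie below 0 in every list, at -0.27 for the cytoskeletal genes and -0.87 for the markers.

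The genes whose pattern lay nearest to Dcx and St8sia2 were sought by the root mean square difference of centred log2 CPM over the 12 libraries, among tested genes that averaged 1 CPM or more. Nearest to Dcx were Ddo (0.69), Dlx6os1 (0.72) and Dlx5 (0.73). Ddo, which encodes D-aspartate oxidase, was at 21.8 to 24.1 CPM in BMP in both lines, and so lacked the difference between lines that Dcx had. Nearest to St8sia2 were Plxna4 (0.42), a semaphorin receptor, Ppp1r1b (0.48), the striatal phosphatase inhibitor DARPP-32, and Map3k9 (0.54). Plxna4 rose by 2.48 ± 0.16 in BMP (FDR = 7.90e-11) and, as for St8sia2, its difference between BMP/FGF and EGF/FGF did not pass (log2 -0.11 ± 0.20, FDR = 0.605). On the deposited log2 values none of the 3 genes nearest to Dcx was shared with these (Gpr17, Clu and Sparcl1), and of those nearest to St8sia2 only Plxna4 was shared, beside Srrm4 and Calb2.

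Markers of other cells moved with the conditions and, in BMP, with the lines. The 10 neural stem cell markers summed to 6388 to 6879 CPM in EGF/FGF, 5731 to 6694 CPM in BMP and 6969 to 7519 CPM in BMP/FGF, and all 10 were detected in every library. Within this sum 4 genes rose and 6 fell in BMP against EGF/FGF. Vim went from 2693 to 4687 CPM, while Nes went from 569 to 126 CPM and Fabp7 from 2410 to 476 CPM. The 10 proliferation genes summed to between 2934 and 3512 CPM in EGF/FGF and to 335 to 351 CPM in BMP/FGF, while in BMP they differed by line, at 479 to 500 CPM in ANS4 and 636 to 705 CPM in BL6. The 10 astrocyte genes, all detected, summed to 11804 to 11887 CPM in ANS4 and 9523 to 9643 CPM in BL6 in BMP, against 3271 to 3926 CPM in EGF/FGF and 14030 to 14278 CPM in BMP/FGF. In BMP the markers were higher in BL6, the line with the higher proliferation and the lower astrocyte sum. Across conditions the order differed. EGF/FGF had the highest proliferation and the lowest astrocyte sums, and the markers summed to 889 to 971 CPM there, against 1448 to 2237 CPM in BMP. A link between these sums was not tested.

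Oligodendrocyte lineage genes showed a similar split, as 1439 to 1505 CPM in ANS4 and 1954 to 2144 CPM in BL6 in BMP, beside 1693 to 1907 CPM in EGF/FGF and 1553 to 1636 CPM in BMP/FGF. Between 10 and 12 of the 12 were detected, and the defining genes Sox10 and Mog were at most 0.626 and 0.261 CPM in any library, while Gpr17 of committed progenitors was at 148 to 309 CPM in BMP. Ependymal genes summed to 63.5 to 78.5 CPM in EGF/FGF, 194 to 236 CPM in BMP and 198 to 212 CPM in BMP/FGF, with 5 to 7 of 8 detected and most of the sum from Foxj1. The microglia genes Csf1r and Cx3cr1 were at most 0.103 and 0.517 CPM in any library. The part of these other markers in the results for the neuroblast genes was not tested.

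**Figure D5:**
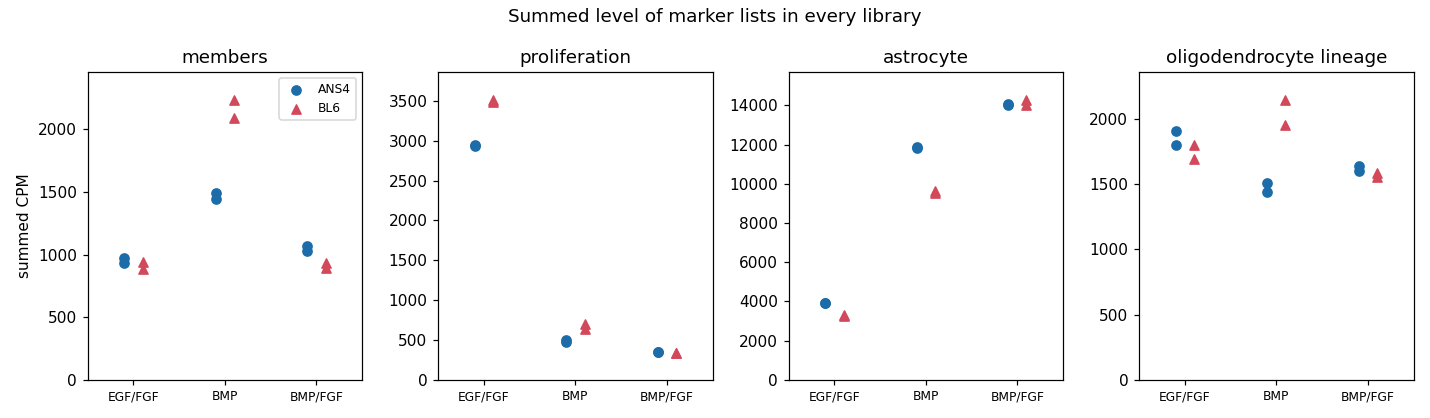
Summed CPM of the 10 neuroblast and young neuron markers (panel titled members) and of 3 other marker lists in every library, on linear axes from 0, with circles for ANS4 and triangles for BL6. The neuroblast sum is highest in BL6 BMP (2089 to 2237 CPM) and is 1448 to 1493 CPM in ANS4 BMP, while the astrocyte sum is highest in BMP/FGF.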

How the data were processed

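RNA-seq of 12 libraries (BGISEQ-500RS low input kit, RIN of at least 9.6) was analysed from 2 deposited tables. The estimated counts per gene were made by the authors with kallisto 0.44.0 after Trim Galore 0.5.0, on mm10, summed per gene and deposited as whole numbers. The deposited log2 table holds regularized log values that the authors made with DESeq2 1.27.32, and served only as an alternative. Pseudoalignment shares reads between overlapping genes. Genes were kept by filterByExpr on the conditions, scaled by TMM and tested, two-sided, with edgeR 4.0.16 (glmQLFit and glmQLFTest, R 4.3.3) with condition and line as terms, or with 6 group means for differences involving lines, at FDR under 0.05. The SE of an edgeR log2 fold change was derived from the test, as its absolute value divided by the square root of the quasi-likelihood F statistic. CPM use the scaled library sizes, and log2 CPM for pattern likeness a prior count of 2. Gene positions are from the GRCm38 annotation.

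The members and lists were chosen with earlier results of these data known. For the 10 markers, BMP/FGF against BMP and its line difference are therefore given with counts of calls as a description and no p-values, the latter after the design had listed a test. All 10 markers were named, and from each other list at most 4 genes called in BMP/FGF against BMP with a mean of at least 1 CPM and the largest changes. The floor was 3 counts, 0.155 to 0.168 CPM. Replicates are labelled as replicas of 1 line each, so p-values measure the spread between such cultures. Replicates of one line and condition differed by more than sampling noise (chi-square per degree of freedom 2.13 to 12.3, highest for BL6 BMP). Alternatives were other scalings, DESeq2 1.42.0, limma-trend (limma 3.58.1) on the deposited log2 values, no filter, a replicate block, no line term, fits to the libraries compared only or to 1 line, and leaving out the libraries in turn. The fitting code was tested on simulated data. The summed level of the microglia list is not reported here.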

Additional observations from a re-analysis of the deposited data

Results flagged for a closer look

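For Elavl3 both BMP/FGF libraries lay above both BMP libraries in ANS4 and both lay below in BL6. The rise in ANS4 was small (log2 0.18 ± 0.08) and was not called, while the fall in BL6 (-1.26 ± 0.08) was. The difference, BL6 minus ANS4, was -1.44 (log2), and is given untested because the genes were listed with this contrast known.

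For 7 markers the BMP over EGF/FGF fold change differed between the lines by the edgeR interaction test, each time higher in BL6. For Sox11 this was a smaller fall, and for Cd24a the fold change was -0.12 in ANS4 and 0.25 in BL6. BL6 minus ANS4 was 1.20 for Elavl3, 0.91 for Elavl4, 0.87 for Crmp1, 0.69 for Tubb3, 0.46 for Sox4, 0.40 for Sox11 and 0.37 for Cd24a (log2). The FDR ranged over the alternatives up to 0.000359 for Elavl3, 0.000953 for Crmp1, 0.0445 for Sox11, 0.0457 for Sox4, 0.0566 for Tubb3, 0.142 for Cd24a and 0.149 for Elavl4, so that the last 3 were lost under some of them. No marker had a library that stood apart from the other 3 of its condition by Dixon's test, whose nominal chance rate is about 5% of checks. The 4 libraries of a condition come from 2 lines, so a difference between the lines widens their range. The test can then miss a deviant replicate and the rate need not hold, so nothing is read from it on the replicates.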

How the results depend on the processing

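Over all markers, comparisons and alternatives, 1350 log2 fold changes kept direction and side of the threshold, 24 newly passed, 30 no longer passed and 18 changed sign. The cause was not tested. The count of markers that fell in BMP against EGF/FGF was 0 in place of 1 in BL6 alone. The count lower in BL6 than in ANS4 in EGF/FGF was 1 in place of 0 with DESeq2 and with only the 4 libraries of the condition. Over all genes 508 and 664 were lower there, in place of 511. The count of markers also moved when either BL6 BMP replicate was left out. The same count in BMP/FGF was 3 by library size only, 3 with DESeq2 and 4 with only the 4 libraries, in place of 0. Over all genes 43, 42 and 422 were lower there, in place of 23. Here too the count of markers moved when either BL6 BMP replicate was left out.

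Sign changes between conditions were of Cd24a in BMP against EGF/FGF (-0.124 in ANS4 alone, -0.0076 to 0.143 leaving out 1 library), Crmp1 in BMP/FGF against EGF/FGF (-0.0139 to 0.159 leaving out 1 library) and Elavl3 in BMP/FGF against BMP (0.179 in ANS4 alone). For BL6 against ANS4 in EGF/FGF, leaving out 1 library gave a range of -0.923 to 0.865 for Dcx, -0.160 to 0.157 for Tubb3, -0.124 to 0.262 for St8sia2 and -0.0526 to 0.306 for Elavl4, and the deposited log2 values gave -0.0074 for Tubb3 and -0.293 for Elavl4. In BMP/FGF it gave -0.0411 to 0.230 for St8sia2, -0.195 to 0.308 for Elavl4, -0.176 to 0.0214 for Cd24a and -0.0026 to 0.0475 for Sox11, and library size only gave -0.00656 for Sox11. None of these differences between lines passed under the alternative that turned its sign.

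Over all genes, the counts that moved by more than 1.5 times were those between lines. In BL6 against ANS4 they gave 657 higher in EGF/FGF, 630 higher and 444 lower in BMP and 693 and 422 in BMP/FGF with only the 4 libraries of the condition. In EGF/FGF, limma-trend gave 172 higher and no filter 253. In BMP/FGF, DESeq2 gave 176 higher and 42 lower, limma-trend 40 and 9, and no filter 11 lower. With only the 8 libraries compared, the line difference in BMP against EGF/FGF gave 365 higher and 250 lower. Leaving out 1 library moved these counts as far as 12 and 358 higher in BMP/FGF (without BL6 BMP/FGF replicate 1 and BL6 BMP replicate 2), 51 and 889 in EGF/FGF (without ANS4 EGF/FGF replicate 2 and BL6 BMP replicate 2), 359 and 1351 in the line difference in BMP against EGF/FGF (without ANS4 BMP replicate 1 and BL6 BMP replicate 1), 464 and 1484 in that in BMP/FGF against BMP (without ANS4 BMP/FGF replicate 1 and BL6 BMP replicate 1), with 425 lower without BL6 BMP/FGF replicate 2, and 993 higher and 871 lower in BL6 against ANS4 in BMP (without ANS4 BMP replicate 1 and replicate 2). The replicate block changed no count of markers by over 1.5 times and gave 2435 higher and 2590 lower genes in BMP/FGF against BMP, in place of 2674 and 2839. Replicate differences of same-numbered libraries correlated by -0.0711 to 0.0529 between conditions of a line. No effect shared by same-numbered libraries was seen, but the correlations cannot show whether these libraries were prepared together. Nothing is read from a call lost under the block. With 2 replicates per line and condition, and 12 to 42 counts of Dcx in EGF/FGF, small differences between lines could not be shown.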
